A study of Homo sapiens with 6 samples.

Results

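The 5 genes described here are KIT, MS4A3, AQP3, CD69 and TENT5C (older symbol FAM46C), whose signal was lower in K562 cells given all-trans retinoic acid (ATRA) than in cells given its solvent DMSO. They were named for that difference, so it is reported as a description, without a test. All probe sets that the platform annotation assigns to them were used, 9 of 54675, and the genes are 5 of the 19775 measured.

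K562 is a human leukaemia line grown from a chronic myeloid leukaemia. All cells were nucleofected with up to 200 nM of either an siRNA, labelled RNAi8, or a scrambled control RNA (scrRNA), and 24 hours later all received ATRA or DMSO. Total RNA of 6 samples was hybridised to 1 Affymetrix HG-U133 Plus 2.0 array each, with 1 siRNA and 1 scrambled array in each of 3 independent experiments. ATRA was given in experiments 1 and 3 (4 arrays) and DMSO in experiment 2 (2 arrays), so treatment and experiment cannot be told apart. The series is about PRAME, a repressor of retinoic acid receptor signalling.

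Retinoic acid binds nuclear receptors that sit on DNA as heterodimers with RXR and switch target genes on when the ligand is present. In blood formation it promotes myeloid maturation, during which genes of immature cells are turned down. KIT encodes the receptor tyrosine kinase for stem cell factor, which is carried by haematopoietic stem and progenitor cells and kept by mast cells. MS4A3 encodes a membrane protein with 4 membrane-spanning segments that is typical of granulocyte and monocyte progenitors and of basophils. CD69 is a lectin-like receptor of early lymphocyte activation, AQP3 a channel for water and glycerol that red cells also carry, and TENT5C an enzyme that lengthens poly(A) tails of mRNA. Not all 5 are progenitor genes by function, so they are called by their names below.

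Because the 5 genes were lower together, the 250 bases before the RefSeq start of 4 of them are shown (5′ to 3′, GRCh38.p14; KIT at chr4:54657707-54657956 on the plus strand, MS4A3 at chr11:60056415-60056664 plus, AQP3 at chr9:33447594-33447843 minus, TENT5C at chr1:117605798-117606047 plus). No entry for CD69 was used. Capitals mark the letters AGATAA, a form of the GATA factor motif, and TATAA, a form of the TATA box, on either strand.
KIT promoter: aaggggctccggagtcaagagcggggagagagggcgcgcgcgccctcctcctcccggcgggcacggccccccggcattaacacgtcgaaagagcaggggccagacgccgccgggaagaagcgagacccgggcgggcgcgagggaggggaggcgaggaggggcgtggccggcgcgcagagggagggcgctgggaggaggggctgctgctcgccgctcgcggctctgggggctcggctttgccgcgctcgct
MS4A3 promoter: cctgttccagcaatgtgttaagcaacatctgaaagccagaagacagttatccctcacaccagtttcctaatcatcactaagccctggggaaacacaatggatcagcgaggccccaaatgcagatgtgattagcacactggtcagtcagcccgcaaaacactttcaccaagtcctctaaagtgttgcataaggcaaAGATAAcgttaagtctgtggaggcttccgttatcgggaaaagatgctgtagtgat
AQP3 promoter: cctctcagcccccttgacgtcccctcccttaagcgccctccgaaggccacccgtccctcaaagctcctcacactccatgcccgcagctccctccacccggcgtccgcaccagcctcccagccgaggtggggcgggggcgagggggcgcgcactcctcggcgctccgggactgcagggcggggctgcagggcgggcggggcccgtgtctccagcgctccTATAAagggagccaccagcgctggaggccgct
TENT5C promoter: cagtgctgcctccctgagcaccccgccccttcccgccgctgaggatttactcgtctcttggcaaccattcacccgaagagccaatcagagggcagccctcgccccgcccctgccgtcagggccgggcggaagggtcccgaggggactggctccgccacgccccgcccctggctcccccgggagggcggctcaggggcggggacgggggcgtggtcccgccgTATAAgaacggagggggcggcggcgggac

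In these windows the promoters differed in composition. MS4A3 had 46.4% G and C, and KIT had 76.4%, AQP3 73.6% and TENT5C 74.0%. Among 35116 promoter windows of the same length, 25.5% had a G and C content at or below that of MS4A3 and 92.5% one at or below that of KIT. AQP3 and TENT5C each held TATAA, starting 32 and 29 bases before the start, as did 18.9% of all windows. MS4A3 held AGATAA 55 bases before the start, as did 9.17% of all windows. The retinoic acid receptor half-sites AGGTCA and AGTTCA were searched on both strands and found in 0 of the 4 windows, against 12.1% and 8.80% of all windows. TGATAA, another form of the GATA motif, was likewise in 0 of 4 and in 6.66% of all. The E-box CANNTG occurred 3 times in MS4A3 and not in the other windows (61.8% of all). The GC box GGGCGG occurred 7 times in TENT5C, 4 times in AQP3, 1 time in KIT and not in MS4A3 (42.6% of all). A match is a string of letters, not a bound site.

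Before the genes themselves, the arrays were compared. PRAME, the named target of the series, had a log2 signal of 12.10 to 12.14 on the siRNA arrays and 12.70 to 13.00 on the scrambled arrays. CYP26A1, the enzyme that breaks down retinoic acid, lay at 11.21 to 12.21 on the ATRA arrays and at 5.72 and 5.75 on the DMSO arrays. Experiment 3 stood apart from the others. Over probe sets (not independent units) its arrays had a correlation of 0.979 to 0.982 with the other 4, against 0.996 or more among those 4. The gap between the 3' and 5' actin probe sets was 2.98 and 3.36 on the log2 scale in experiment 3 and 0.63 to 0.92 elsewhere, and the GAPDH gap was 1.20 and 0.74 against 0.03 to 0.08. Of the erythroid markers that K562 cells are known for, 6 of 7 were measured and all 6 lay above the median of all probe sets (5.99), with a median of 10.17. Genes with a mean below 5.99 are called dim, because such signals were not shown to be above background.

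KIT, the receptor, was lower on all 4 ATRA arrays, but close to background. Its single probe set (205051_s_at) had a log2 signal of 6.27 (scrambled) and 6.60 (siRNA) under DMSO in experiment 2. Under ATRA it had 5.32 and 5.61 in experiment 1 and 5.38 and 5.53 in experiment 3, in the same order. The groups did not overlap, and all 4 ATRA values were below 5.99 while both DMSO values were above it. The difference from experiment 2 was -0.97 in experiment 1 and -0.98 in experiment 3. The mean difference of -0.97 left 50.9% of the signal. As the ATRA level was dim, this is a difference in signal alone. In bulk RNA, fewer cells with the transcript and less transcript per cell cannot be told apart, here and for the other genes.

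MS4A3, the membrane protein of myeloid progenitors, was bright in every sample and lower under ATRA by both of its probe sets. The brighter one (210254_at) had 11.04 (scrambled) and 11.02 (siRNA) under DMSO. Under ATRA it had 10.38 and 10.50 in experiment 1, and 10.02 and 9.91 in experiment 3. The DMSO arrays were higher than every ATRA array, and experiment 3 was lower than experiment 1. The second probe set (1554892_a_at) had 10.66 and 10.66 under DMSO, 9.91 and 9.98 in experiment 1, and 8.18 and 8.08 in experiment 3. In experiment 1 the probe sets gave similar differences, -0.59 and -0.72. In experiment 3 they gave -1.06 and -2.53, so that 47.8% or 17.3% of the DMSO signal remained depending on the probe set. The part of the 3' to 5' gap of experiment 3 in that disagreement was not tested.

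CD69, the lectin-like activation receptor, was lower under ATRA, and it was the gene whose ATRA arrays were spread most between siRNA and scrambled RNA. Its probe set (209795_at) had 9.93 (scrambled) and 10.01 (siRNA) under DMSO, 9.49 and 9.01 in experiment 1, and 9.05 and 8.39 in experiment 3. All 4 ATRA arrays were below both DMSO arrays. With scrambled RNA the difference from experiment 2 was -0.43 and -0.87 in experiments 1 and 3, and with siRNA it was -1.003 and -1.62. The mean difference of -0.98 left 50.6% of the signal. Among 8 markers of T and NK lymphocytes, in which CD69 is best known, 2 had a mean at or above 5.99 and 6 were dim. Their summed linear signal was 1760 to 1838 under DMSO and 880 to 1700 under ATRA. CD3D, a chain of the T cell receptor complex, made up most of it, with a log2 level of 10.51 to 10.55 under DMSO and 9.08 to 10.45 under ATRA. The CD3D difference lay in experiment 3 (-1.26, against -0.09 in experiment 1). The part of these genes in the CD69 difference was not tested.

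AQP3, the water and glycerol channel, was the gene of the 5 with the largest ATRA difference by its brightest probe set. That probe set (39248_at) had 10.20 (scrambled) and 10.10 (siRNA) under DMSO, 8.82 and 8.87 in experiment 1, and 9.22 and 9.22 in experiment 3. In this probe set experiment 1 was the lower of the ATRA experiments, unlike for MS4A3, CD69 and the brighter probe set of TENT5C. The difference was -1.30 in experiment 1 and -0.93 in experiment 3, a mean of -1.12, which left 46.1% of the signal. The other probe sets were lower too, by less, and in them experiment 3 was the lower. In experiments 1 and 3 they gave -0.35 and -0.47 (39249_at), and -0.41 and -0.54 (203747_at). Probe set 39249_at had 7.77 and 7.80 under DMSO and 7.29 to 7.51 under ATRA, a mean difference of -0.41. Probe set 203747_at had 7.70 and 7.499 under DMSO and 7.02 to 7.20 under ATRA, a mean difference of -0.48. The ATRA and DMSO arrays did not overlap in any of the 3 probe sets, but the remaining signal was 46.1%, 75.4% and 71.8%.

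TENT5C, the poly(A) polymerase, was lower under ATRA by its brighter probe set and not clearly by the other. Probe set 226811_at had 8.40 (scrambled) and 8.25 (siRNA) under DMSO, 7.66 and 7.83 in experiment 1, and 7.28 and 7.47 in experiment 3. The difference was -0.58 and -0.95, a mean of -0.77 that left 58.8% of the signal. Probe set 220306_at, at 5.99 to 6.31 on all arrays, had 6.31 and 6.15 under DMSO, 6.02 and 6.12 in experiment 1, and 5.99 and 6.27 in experiment 3. Its ATRA and DMSO values overlapped, with a mean difference of -0.13. It lay near the median of all probe sets.

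**Figure D1:**
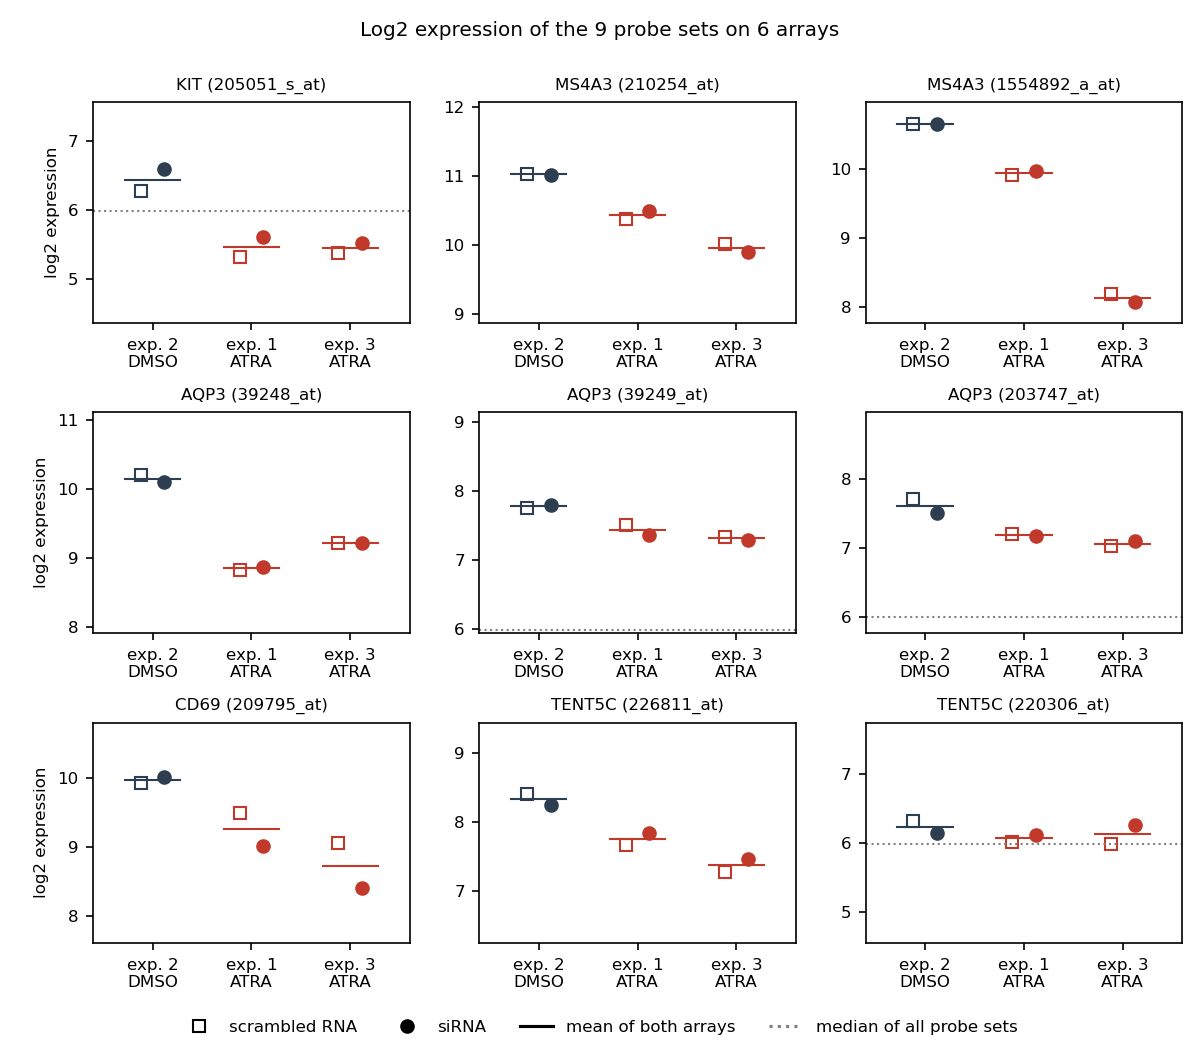
Log2 expression (y axis) of each probe set in experiment 2 (DMSO, dark) and experiments 1 and 3 (ATRA, red), with open squares for scrambled RNA, filled circles for siRNA, a line at the mean of both arrays and a dotted line at the median of all probe sets (5.99). In 8 of 9 panels all ATRA points lie below both DMSO points, and TENT5C probe set 220306_at is the exception. The genes were chosen on this difference, so nothing is read from that count. By the brightest probe set of each gene, the same held for 13.2% of all genes.

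Across the 5 genes, each at its brightest probe set, all 4 ATRA arrays were below both DMSO arrays in 5 of 5, against 13.2% of all genes. Since the genes were chosen on this contrast, nothing is read from that count or from the ranks that follow. A difference of -0.50 or lower was seen in 1.22% of all genes. By size of the mean difference AQP3 was number 13, CD69 20, KIT 21, MS4A3 48 and TENT5C 63 from the lowest of 19775 genes. By the distance between the lowest DMSO array and the highest ATRA array, AQP3 was number 1 (0.88) and KIT number 2 (0.66), followed by MS4A3 at 6 (0.52), CD69 at 9 (0.43) and TENT5C at 11 (0.41). In the other probe sets that distance was 0.26 and 0.30 for AQP3, 0.68 for MS4A3 and -0.12 for TENT5C. In the planned limma test on experiment means, 0 of 19775 genes passed an adjusted p of 0.05 (0% called), with 235 at an unadjusted p below it. CYP26A1 itself, with a difference of 5.94, missed it (adjusted p = 0.995), so a miss in this test of 2 experiments against 1 says nothing about a gene, here or in the lists below. When the 6 arrays entered singly, with experiment as a random effect, 2 passed (0.0101%), both higher under ATRA.

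**Figure D2:**
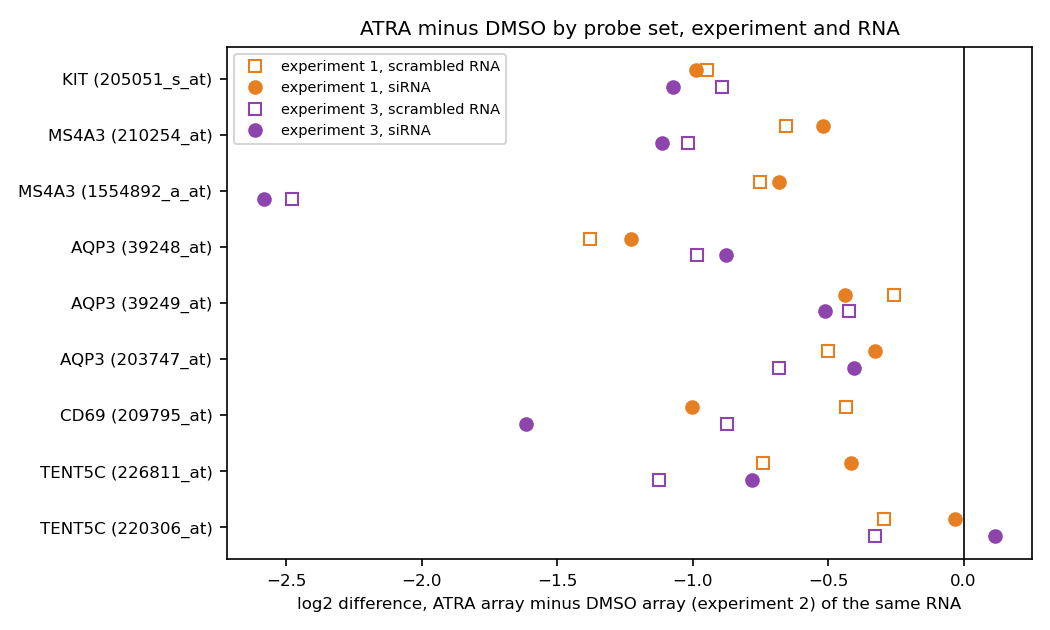
Log2 difference (x axis) between each ATRA array and the DMSO array of the same RNA, for each probe set; orange marks experiment 1, purple experiment 3, open squares scrambled RNA and filled circles siRNA. The probe sets of MS4A3 are close in experiment 1 and far apart in experiment 3 (-1.06 and -2.53), and the CD69 points divide by RNA.

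Whether the siRNA altered the 5 genes was asked next, a comparison that did not choose them. KIT was higher with the siRNA throughout, by 0.29, 0.33 and 0.15 in experiments 1, 2 and 3, as were 13.1% of all genes. CD69 was lower in the ATRA experiments (-0.48 and -0.66) and near 0 in the DMSO experiment (0.08), a pattern of signs seen in 9.92% of all genes. TENT5C and AQP3 had the reverse pattern, as had 13.3%. In experiments 1, 2 and 3, MS4A3 differed by 0.12, -0.02 and -0.12, AQP3 by 0.05, -0.10 and 0.0065, and TENT5C by 0.17, -0.15 and 0.19, without a common sign. The KIT difference in each experiment was smaller than its ATRA difference.

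None of the 5 passed the test. In limma without a block (adjusted p = 1 for each) the mean difference was 0.25 ± 0.06 (SE) for KIT, with a 95% interval of 0.11 to 0.40, and -0.35 ± 0.25 for CD69, with an interval of -0.97 to 0.26. For MS4A3 the interval was -0.48 to 0.47, for AQP3 -0.42 to 0.39 and for TENT5C -0.35 to 0.48. In that fit 0 of 19775 genes passed (0%), and 255 had an unadjusted p below 0.05. With arrays paired inside experiments (experiment as a block), 5 genes passed (0.0253%), of which none is among the 5 described here. With the block KIT had an unadjusted p of 0.0046 (adjusted p = 0.664) and CD69 one of 0.0088 (adjusted p = 0.770). The blocked interval was 0.10 to 0.41 for KIT, slightly wider than without the block, and -0.60 to -0.11 for CD69, which then left out 0. For the other genes it was narrower, at -0.13 to 0.12 for MS4A3, -0.13 to 0.11 for AQP3 and -0.10 to 0.23 for TENT5C.

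**Figure D3:**
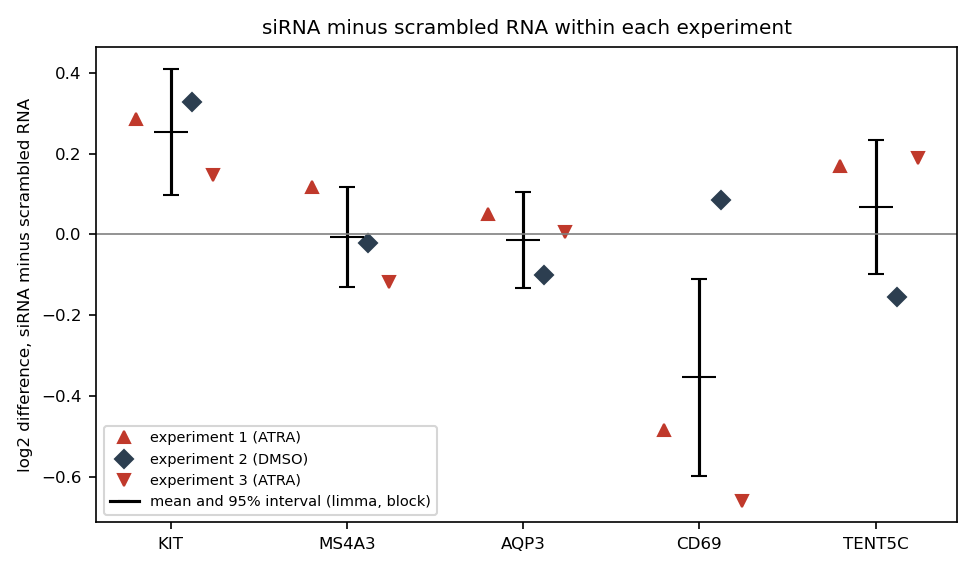
Log2 difference between siRNA and scrambled RNA (y axis) in each experiment, with ATRA experiments in red and the DMSO experiment dark; bars give the mean and 95% interval from limma with the experiment as a block. KIT lies above 0 in all 3 experiments and CD69 below 0 in the ATRA experiments alone, and neither passed the adjusted threshold.

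Whether the siRNA difference itself depended on ATRA was tested as the difference between its effects under ATRA and DMSO. For CD69 that difference was -0.66, and its 95% interval ran from -2.11 to 0.80 in the unblocked fit (limma adjusted p = 1) and from -0.95 to -0.37 in the blocked one (unadjusted p = 8.5e-04, adjusted p = 0.998). For TENT5C it was 0.33 (-0.72 to 1.39, and 0.04 to 0.62 with the block, adjusted p = 0.998). It was -0.11 for KIT, 0.13 for AQP3 and 0.02 for MS4A3. No gene of 19775 passed in either fit (0%), with 262 without and 655 with the block at an unadjusted p below 0.05. The DMSO side of this comparison is 1 experiment.

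Genes around KIT were described on the same contrast. The SEs that follow come from limma on the 3 experiment means. KITLG, its ligand, was dim, at 4.43 to 4.77 under ATRA and 4.45 and 4.56 under DMSO. Of 29 measured genes for the ligand and for signalling from KIT, 21 were higher and 8 lower under ATRA, with a median of 0.04 (all genes -0.0081), and 0 passed the test in either direction. SOCS1, an inhibitor of cytokine signalling, was lowest, at 6.47 to 7.52 against 7.60 and 7.87 under DMSO (-0.80 ± 0.38 SE). Its difference was -0.41 in experiment 1 and -1.19 in experiment 3. Higher were the kinases JAK2 (0.49 ± 0.24 SE) and FYN (0.47 ± 0.34 SE) and the transcription factor STAT5A (0.40 ± 0.37 SE), each on all 4 ATRA arrays. In experiments 1 and 3 they differed by 0.26 and 0.73 (JAK2), 0.24 and 0.71 (FYN), and 0.12 and 0.67 (STAT5A). All 4 ATRA arrays were above both DMSO arrays in 13.5% of all genes, the share that belongs beside each such gene below. The 4 other class III receptor kinases, FLT3, CSF1R, PDGFRA and PDGFRB, lay at mean levels of 6.01 to 6.15, just above the median, with differences of -0.16 to -0.01.

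Of 11 measured factors known to act on KIT in blood cells, 5 were higher and 6 lower (median -0.04), and 0 passed. LMO2, the bridging protein of the TAL1 complex, was at 10.03 to 10.22 under ATRA and 10.52 and 10.56 under DMSO (-0.42 ± 0.27 SE). GATA1, the erythroid master factor, was at 8.41 to 8.96 against 9.05 and 9.16 (-0.37 ± 0.32 SE). The GATA1 difference was -0.17 in experiment 1 and -0.57 in experiment 3. LMO2 and GATA1 with GATA2 (-0.18) and ZFPM1, the GATA1 cofactor FOG1 (-0.17), were the 4 of 11 with all ATRA arrays below both DMSO arrays, against 13.2% of all genes. For GATA2 this was nearly a tie, with 1.9e-04 between the lowest DMSO and the highest ATRA array. SP1 (-0.43) and CBFA2T3 (0.32) overlapped, and in SP1 the difference lay in experiment 3 (-0.86, against -0.0038 in experiment 1). CBFA2T3 was lower in experiment 1 (-0.21) and higher in experiment 3 (0.84). Of 23 stem and progenitor genes measured, 12 were higher and 11 lower, with a median of 0.0015 and 0 passing. CD34, the defining surface marker of progenitors, was at 7.01 to 7.19 under ATRA and 7.05 and 7.09 under DMSO, and the groups overlapped. MECOM, a stem cell transcription factor, was higher on all 4 ATRA arrays (0.45 ± 0.27 SE), as was PTPRC, the common leukocyte antigen (0.36 ± 0.32 SE). ANGPT1, the ligand of the receptor TEK, was at 0.48 ± 0.43 (SE) but overlapped, with 0.11 in experiment 1 and 0.85 in experiment 3.

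A bright relative of MS4A3 was lower as well. MS4A4A was at 9.01 to 9.38 under ATRA and 9.45 and 9.65 under DMSO (-0.35 ± 0.29 SE). Of the 12 other family genes measured, 4 had a mean at or above 5.99, 4 were higher and 8 lower, the median was -0.02 and 0 passed. Apart from MS4A4A, those at or above 5.99 (MS4A6A, TMEM176A and TMEM176B) differed by -0.06 to -0.0018. Of 13 granulocyte progenitor and granule genes, 5 were higher and 8 lower (median -0.02), and 0 passed. MPO, ELANE, PRTN3 and AZU1, primary granule proteins of the stage at which MS4A3 is known, were dim (4.06 to 5.20). CTSG, another granule protein of the list, was not dim (mean 6.98), and its groups overlapped (-0.11 ± 0.15 SE). CEBPE (mean 6.34) was lower on all 4 ATRA arrays (-0.15 ± 0.11 SE), as were 13.2% of all genes. PRG2, an eosinophil granule protein, was at -0.26 ± 0.11 (SE) and LYZ, lysozyme, at 0.18 ± 0.29 (SE). Mast cells and basophils share KIT or MS4A3 with progenitors. Of 7 of their markers measured, 2 were at or above 5.99 (the tryptases TPSAB1 and TPSB2), and their summed linear signal was 340 to 365 under ATRA and 373 and 377 under DMSO. Their part in the KIT and MS4A3 differences was not tested.

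The relatives of AQP3, CD69 and TENT5C followed, with 0 passing the test. Of 10 other aquaporins, 2 were higher and 8 lower (median -0.07). AQP10, like AQP3 a channel that passes glycerol, was at 7.44 to 7.997 under ATRA and 8.02 and 8.12 under DMSO. Like the brightest AQP3 probe set, and unlike its other probe sets, AQP10 was lower in experiment 1 (-0.63) than in experiment 3 (-0.21). AQP1, the red cell water channel, was higher on all 4 ATRA arrays (0.25 ± 0.12 SE). Of 18 lectin-like and sphingosine phosphate receptors, 8 were higher and 10 lower (median -0.02). S1PR1, the receptor that CD69 protein draws from the cell surface, was dim (0.33 ± 0.12 SE), and S1PR3 was lower on all 4 ATRA arrays (-0.69 ± 0.47 SE, -0.22 and -1.16 in experiments 1 and 3). CLEC2B, a lectin of the same gene cluster, differed by 0.17 in experiment 1 and -0.95 in experiment 3. Of the 13 poly(A) and terminal nucleotidyltransferases other than TENT5C, 8 were higher and 5 lower (median 0.18). The paralogs TENT5A (-0.13), TENT5B (-0.07) and TENT5D (-0.08) were near the median or dim. The canonical poly(A) polymerase PAPOLA (0.42 ± 0.36 SE), with PAPOLG (0.47 ± 0.29 SE), TENT4B (0.51 ± 0.40 SE) and TENT2 (0.37 ± 0.37 SE), was higher on all 4 ATRA arrays, with the larger difference in experiment 3.

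**Figure D4:**
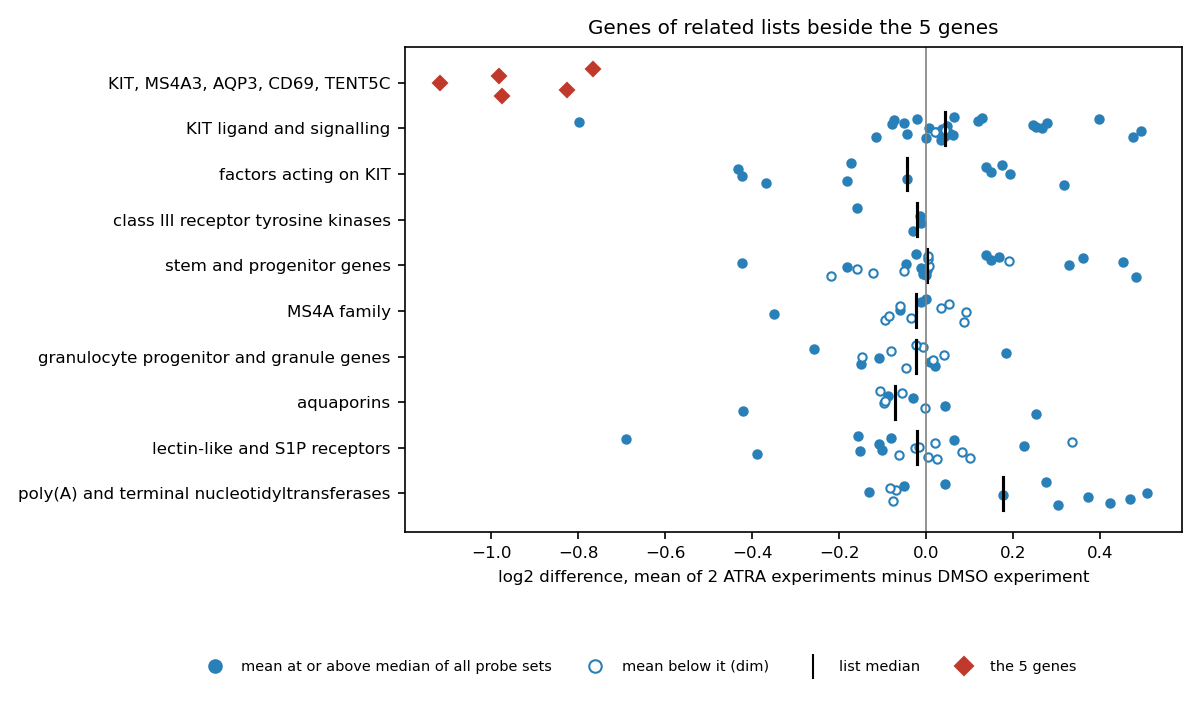
Log2 difference between the mean of the ATRA experiments and the DMSO experiment (x axis) for the 5 genes (red diamonds, chosen on this difference) and for the genes of related lists (circles, open where the mean lies below the median of all probe sets; black bars give list medians). List medians lie between -0.07 and 0.18.

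The genes most like each of the 5 were taken by the root mean square distance between profiles over the 6 arrays, each profile centred on its own mean, among genes with a mean at or above 5.99. MS4A3 and TENT5C were among each other's 3 nearest (0.11), and ID1, an inhibitor of bHLH transcription factors, was nearest to MS4A3 (0.09). RSAD2, the antiviral protein viperin, was the nearest to KIT (0.15) and AQP3 (0.27) and the third nearest to TENT5C (0.13). It stood at 7.11 and 7.13 under DMSO, 6.30 and 6.45 in experiment 1, and 6.21 and 6.12 in experiment 3. CMPK2, the mitochondrial nucleotide kinase encoded next to RSAD2, followed for KIT (0.22), and then AQP3 itself (0.23). DOK3, an adaptor protein, completed the list for MS4A3 (0.11) and STAP1, another adaptor, that for TENT5C (0.12). For AQP3, RASSF2 (0.30) and AQP10 (0.34) followed. The nearest to CD69 was TMEM158 (0.15), which also had its lowest value, 8.59, on the siRNA array of experiment 3, before ID1 (0.21) and ACRBP (0.21). The 6 arrays come from 3 experiments, so these likenesses rest mostly on the size of the differences between 3 levels. The 5 genes were chosen for being lower under ATRA, and the distance was taken over the same arrays. A short distance between members of the 5 is partly set by that choice, so nothing is read from it.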

How the data were processed

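Log2 expression values were deposited by the authors after RMA in BRB-ArrayTools, per the labels and the series' design text. Version and settings: not given in the sources used here. Of 54675 probe sets (62 controls), the supplied platform annotation gave 41091 exactly 1 gene, 1801 several genes and 11721 none. By identifier, 19735 of 19775 genes matched RefSeq. Each gene was tested at its probe set with the highest mean, and array medians lay between 5.96 and 6.02.

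Tests used limma 3.58.1 in R 4.3.3 (eBayes with intensity trend) and Benjamini-Hochberg adjustment over all genes at 0.05. The siRNA test had treatment as covariate, the difference of siRNA effects used 4 groups, and ATRA was compared on experiment means. The code of each was run on simulated data with added differences, which checks the size of its estimates and not its error rates on these arrays. Experiment numbers pair the arrays, and the labels call the experiments independent. Deviations from the mean of all siRNA or all scrambled arrays correlated at 0.679, 0.795 and 0.883 within experiments. These deviations still held the treatment difference, which both arrays of an experiment share, so nothing about the pairing is read from them. Named genes were the 5, up to 4 per list with the largest ATRA difference among genes that were not dim, and the 3 most similar profiles; others were chosen after their values were seen. The 5 genes, lists and rules were chosen with earlier results of these data known, and the motifs TATAA and GGGCGG after seeing the promoters. Promoter sequences are RefSeq's (GRCh38.p14).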

Additional observations from a re-analysis of the deposited data

Results flagged for a closer look

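For 3 of the 5 genes, the siRNA difference had 1 sign in both ATRA experiments and the opposite sign in the DMSO experiment. CD69 was lower with the siRNA under ATRA and slightly higher under DMSO, a difference of siRNA effects of -0.66, and 9.92% of all genes had the same pattern of signs. TENT5C (0.33) and AQP3 (0.13) had the reverse pattern, as had 13.3% of all genes. None passed the test of the difference over all genes (limma, adjusted p of 0.998 to 1 with and without the experiment as a block). No group of the design held the 4 arrays that a check for single outlying arrays needs.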

How the results depend on the processing

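None of the 5 genes passed an adjusted threshold for the siRNA or for the difference of siRNA effects under any alternative run; for CD69, the lowest adjusted p for the siRNA was 0.305. With the experiment as a block, 5 genes passed for the siRNA, 1 with all probe sets of a gene averaged and 6 without dim genes, against 0 without the block; the last 2 were added after seeing the data. With experiment 1 or 3 left out, treatment and experiment coincided, so the fit was the same with and without the block. That fit gave 1 gene without experiment 1 and 2 genes without experiment 3. Leaving out experiment 2 gave 0 genes without the block and 1 with it. These runs with the block were also added. The block changed no other call. For ATRA, 2 genes passed with a random block and 4 with no block. Signs turned for AQP3 and MS4A3, whose siRNA values lay near 0. The siRNA difference of AQP3 was 0.029 without experiment 2, with or without the block, and -0.047 without experiment 1. That of MS4A3 was 9.1e-04 without experiment 2, 0.049 without experiment 3 and -0.069 without experiment 1. The difference of siRNA effects for MS4A3 (0.02) was -0.015 after quantile normalization, -0.096 without experiment 1 and 0.14 without experiment 3. With the brightest probe set or the average of all, the ATRA differences of the 5 genes stayed below 0, from -1.31 to -0.45. The genes were chosen on this contrast and every run used the same DMSO experiment, so this is no check of it. Averaging probe sets moved AQP3 to -0.67, MS4A3 to -1.22 and TENT5C to -0.45. KIT was left out by the filter on dim genes. Without experiment 1 or 3 the ATRA comparison and the difference of siRNA effects had no residual degrees of freedom, so they gave values and no counts. The number of arrays limits precision.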
